A study of Rattus with 6 samples.

Results

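The 300 circRNA probes with the brightest signal in rat blood plasma are described here, out of 14145 circRNA probes carried by the microarray. They were chosen by their mean level over all 6 arrays, without use of the groups, among the 10281 probes that the scanner software flagged as well above background on every array. A level is the log2 processed signal minus the 75th percentile of the non-control probes on the same array, called the scaled log2 level below. The values that chose the members are their mean levels, so the levels are given as a description; the difference between groups was not used in the choice. The label of this list speaks of abundance, but a probe's brightness also depends on its sequence and on how well its target is labelled. The ranking is therefore one of signal and not of molar amount.

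Circular RNAs form when the spliceosome joins the end of an exon back to an upstream exon start, which leaves a covalently closed ring. Without free ends they withstand the exonuclease RNase R and many cellular exonucleases, and they are found in blood cells, in extracellular vesicles and in cell-free plasma. Some bind microRNAs or proteins, and for most no function is known. The files and tables used here pair 0 of the 14145 circRNA probe IDs with a gene, a position or a sequence, so the members are named by ID or by their rank and no host gene is given.

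The study used 6 adult male SD rats in a model of myocardial ischaemia-reperfusion injury, abbreviated MIRI, and the arrays compare 3 plasma samples labelled 0 h with 3 labelled 2 h. The labels put MIRI on both. The treatment text describes a ligature of the left anterior descending coronary artery for 40 minutes followed by 2 hours of reperfusion, and sham-operated rats whose thread was passed but left untied; it does not say whether the 0 h samples are the sham rats. It also names the right atrium in one sentence and the right ventricle in another as the source of blood. RNA was digested with RNase R, labelled with Cy3 by random priming and hybridised to 1-colour arrays. No label says outright that each sample is a separate rat, so p-values measure the spread between these samples. All 6 arrays lay on 1 slide and came from 1 scan. The 0 h arrays filled positions in slide row 1 and the 2 h arrays positions in slide row 2, so slide row and group cannot be told apart. Of 31 marker genes of red cells, platelets, leukocytes, cardiomyocytes, endothelium and hepatocytes, 1 could be looked up among the linear-transcript probes. This was the liver cytochrome gene Cyp2e1. It had a spot flagged well above background on every array, but its signal was dim. Cyp2e1 read from 13.5 scanner units on 2 h replicate 1 to 19.97 on 2 h replicate 2. The median circRNA probe read 16.7 and 24.6 units there, and Cyp2e1 lay below that median on every array. The other cell types had 0 probes, so their markers could not be checked. RNase R acts on RNA with free ends, so after this digestion linear markers cannot show which cells the RNA came from. How much of the RNA came from cells was not tested.

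The members were far above background on every array. Their lowest signal on any array was 496 scanner units and their highest 37176, and 0 of their spots were saturated or called outliers. The median member read 1845, 1772 and 1945 units on the 0 h arrays and 1509, 1954 and 1761 on the 2 h arrays. The groups overlapped in this unscaled signal, and the lowest value belonged to 2 h replicate 1. The local background had a median of 17 to 19 units, beside the members and beside all circRNA probes alike. The median member's signal was 80.4 to 117 times its local background, where the median circRNA probe had 0.874 to 1.36 times.

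**Figure D1:**
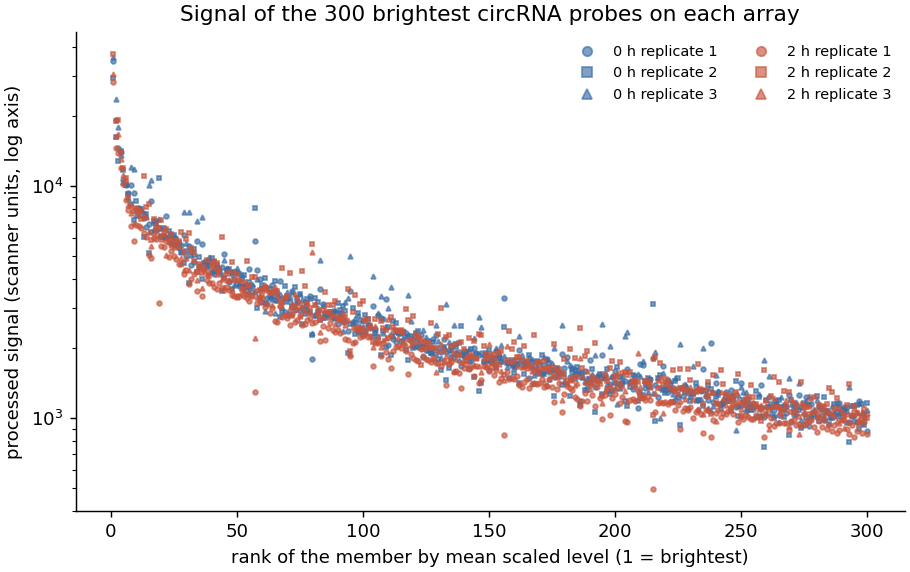
Processed signal on a log axis against the rank of each member by mean scaled level, with 1 point per member and array (blue, 0 h; red, 2 h). Signals lie between 496 and 37176 scanner units, drop steeply over the first ranks, and the arrays of both groups run together along the curve.

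The brightest probe was ASCRPR005480, in first place (rank 1) on all 6 arrays. It read 34579, 29346 and 35998 units at 0 h and 28163, 37176 and 30380 at 2 h, with overlapping groups. On the scaled log2 scale it stood at 9.02 ± 0.07 (0 h) and 8.93 ± 0.06 (2 h), each ± SD with n = 3. ASCRPR011057 came next, at 19261, 16363 and 23774 units at 0 h and 14626, 19058 and 16398 at 2 h. After scaling its 3 values at 0 h, 8.10 to 8.49, lay above those at 2 h, 7.98 to 8.02, a log2 difference of -0.26 ± 0.13 SE (unadjusted p 0.072, limma). The third, ASCRPR012821, read 14667, 12877 and 18039 units at 0 h and 13942, 19267 and 16831 at 2 h; its groups overlapped, with a log2 difference of 0.11 ± 0.12 SE. The signs of these 3 differences depended on the setting, as given in the closing part. The 2 h arrays of ASCRPR011057 and ASCRPR012821 lay closer together than their 0 h arrays, with SDs of 0.02 and 0.03 against 0.20 and 0.18.

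Membership changed little between arrays, which follows in part from the rule, since the mean over these same arrays chose the members. On each array, 281 to 291 of the 300 members were also among that array's own 300 brightest, and 254 members were among them on every array. Of the members, 7 ranked in the first 10 on every array. The lowest place of any member was 529, on 2 h replicate 1, for the member of mean rank 215; its best place on another array was 75. Chosen on the 0 h arrays alone, the list would keep 293 members, and on the 2 h arrays alone 292. In the authors' deposited table, 297 of the 300 were among its 300 highest values, and the lowest place of a member was 304.

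At the edge of the list the values were close. The last 2 members had mean scaled log2 levels of 3.97 and 3.96, and the first 2 probes outside had 3.963 and 3.961. The last member read 884, 1165 and 1088 units at 0 h and 859, 1006 and 1057 at 2 h. The first probe outside read 905, 1189 and 875 units at 0 h and 905, 1033 and 1157 at 2 h, within the same range.

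The 300 probes held nearly as much signal as the other circRNA probes together. Their share of the summed circRNA signal was 47.8%, 48.8% and 48.7% on the 0 h arrays and 47.0%, 46.2% and 46.8% on the 2 h arrays. The means were 48.5% ± 0.54 and 46.7% ± 0.39 (SD, n = 3 each), and every 0 h array lay above every 2 h array. The difference of -1.78 percentage points gave p = 0.1 in a two-sided exact permutation test, the smallest p that 3 against 3 allows, and 0.18 after Benjamini-Hochberg adjustment over 9 such per-array measures; no adjusted value of the 9 was lower. This share leaves out spots that the scanner software called outliers, a choice made after they had been seen: none was a member, but they carried 6.27% of the circRNA signal on 0 h replicate 1 and 4.50% on 2 h replicate 2. With them kept, the difference was -1.47 percentage points and the groups overlapped (exact permutation p 0.5, two-sided).

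The upper part of the list carried most of that share. The first 100 members held 29.9%, 30.6% and 30.4% at 0 h and 29.3%, 28.8% and 29.0% at 2 h, again without overlap (difference -1.29 percentage points, exact permutation p 0.1, two-sided). The shares in this paragraph also leave out the outlier spots and were not computed with them kept. Those spots carried 6.27% of the circRNA signal on 0 h replicate 1, so the separation rests on that choice too. The first 10 held 7.70% to 8.44% and overlapped between groups, and the brightest probe alone held 1.77% to 1.99%. The next 300 probes by mean level held 11.9% to 12.4%, with overlapping groups (difference -0.18 percentage points, exact permutation p 0.3, two-sided).

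On the scaled log2 level the members also read slightly lower at 2 h. The median member stood at 4.82, 4.89 and 4.87 on the 0 h arrays and at 4.75, 4.71 and 4.76 on the 2 h arrays, without overlap. The difference of the group means was -0.12 (exact permutation p 0.1, two-sided). With quantile normalization it was -7.2e-05 (exact permutation p 0.8), and in the authors' deposited table it was 0. The gap between the median member and the median of all circRNA probes, which does not depend on a scaling constant of the array, was 6.52, 6.63 and 6.66 log2 units at 0 h and 6.50, 6.31 and 6.43 at 2 h (difference -0.19, exact permutation p 0.1, two-sided). The nearest values of the groups, 6.52 and 6.50, were close. The median circRNA probe read only 0.874 to 1.36 times its local background, so this gap also depends on the signal of dim probes. Against the next 300 probes the gap was 1.43 to 1.49 at 0 h and 1.39 to 1.44 at 2 h; it overlapped, so a lower position at 2 h than the probes just below them in brightness was not detected (difference -0.03, exact permutation p 0.3, two-sided).

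**Figure D2:**
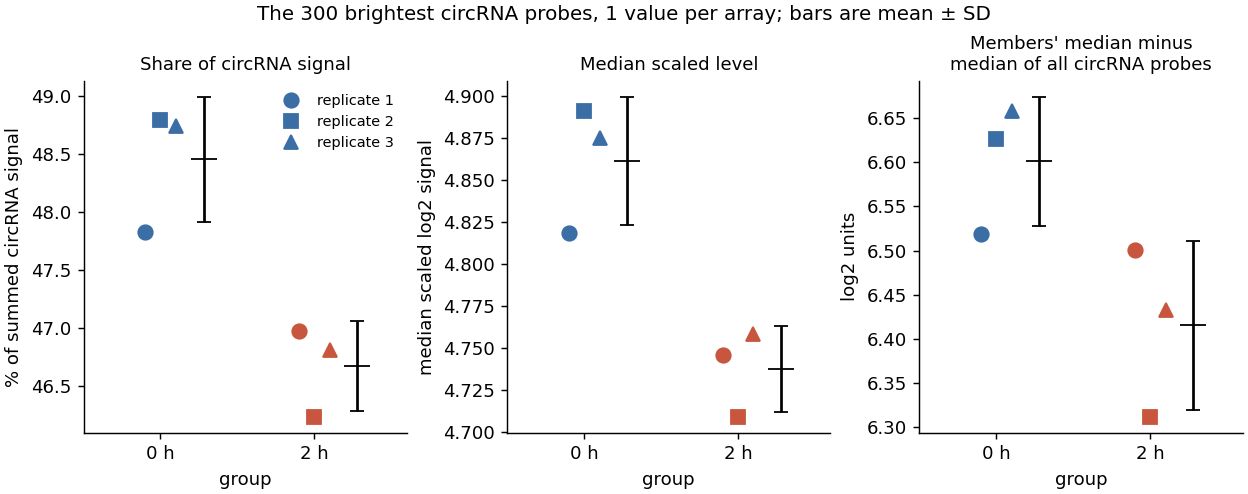
Each point is 1 array, in 3 panels: the members' share of summed circRNA signal in percent, their median scaled log2 level, and their median minus the median of all circRNA probes in log2 units; bars are group means ± SD, n = 3, and the axes do not start at 0. In each panel the 3 arrays at 0 h lie above the 3 at 2 h, by as little as 6.52 against 6.50 in the panel on the right. The share leaves out outlier-flagged spots, and with them kept the groups overlap.

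Bright probes varied modestly between arrays of a group. The residual SD within groups had a median of 0.13 over the members on the log2 scale, with quartiles of 0.09 and 0.18, against 0.17 over all 11656 circRNA probes tested and 0.12 over the next 300. The order against all probes depended on the background: the medians were 0.13 over the members and 0.10 over all probes with normexp, 0.12 and 0.10 with the background added back, and 0.13 and 0.095 in the authors' deposited table. The residual SD was under 0.1 for 86 members and over 0.3 for 20, beside 2089 and 2229 of the 11656 probes tested. The lowest SD, 0.027, belonged to the member of rank 206, which read 1432, 1361 and 1454 units at 0 h and 1202, 1585 and 1417 at 2 h before scaling. The highest, 0.78, belonged to the member of rank 215, which read 1819, 3112 and 1289 units at 0 h and 496, 1032 and 1816 at 2 h. Between the highest and the lowest of the 6 arrays, a member differed 1.31-fold at the median; 240 members differed by less than 1.5-fold and 15 by more than 2-fold. Of the 20 members with an SD over 0.3, 13 were highest on 0 h replicate 3 and 8 were lowest on 2 h replicate 1. An SD over 0.25 was met by 50 members among the 0 h arrays and by 12 among the 2 h arrays. The median SDs at 0 h and 2 h were 0.13 and 0.11 over the members, beside 0.16 and 0.15 over all probes tested.

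Across the 300 members, pairs of 0 h arrays correlated with a Pearson r from 0.930 to 0.972, pairs of 2 h arrays from 0.965 to 0.980, and pairs across the groups from 0.939 to 0.970. These are correlations across probes, which share their array, their labelling and their scan and are not independent replicates. The members span a narrower range of signal than all probes do.

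The comparison of 2 h with 0 h sets the labelled times side by side; the labels do not say that it is one of injured against uninjured rats. Most of the 300 read a little lower at 2 h: 246 had a negative log2 difference and 54 a positive one, 82.0% negative, where 50.9% of all circRNA probes tested were negative. The median log2 difference was -0.11 over the members and -0.0045 over all probes tested. The middle of the list lay between -0.18 and -0.04, the quartiles. The members' median SE was 0.12. For 166 members the difference was smaller than their own SD between arrays of a group. That held for 168 of the next 300 probes and for 6577 of the 11656 tested. The sign of the members' median log2 difference depended on the scaling. With quantile normalization 122 members were negative and 178 positive (median 0.028), and 129 were negative and 171 positive (0.018) with the authors' deposited table. Quantile normalization gives every array the same distribution, so it takes out a shift shared by the brightest probes. No source used here gives the steps behind the authors' table, so whether it also takes out such a shift is not known. The column medians of that table were 5.41 to 5.43. In it the members' median did not differ between groups (difference 0), so the sign there cannot be read as a separate check on the shift. For the members, the arrays named replicate 2 stood apart from the rest. Of the 300, 168 (56.0%) were highest on 0 h replicate 2 and 172 (57.3%) were lowest on 2 h replicate 2. Among all probes tested with a value on every array, the shares were 21.0% and 24.1%, and 28.6% were highest on 2 h replicate 2. Without 0 h replicate 2 the members' median difference was -0.048, and without 2 h replicate 2 it was -0.056. On 2 h replicate 2 the most probes were well above background, 12523 against 10813 to 11792 on the other arrays, and the median circRNA signal was the highest, 24.6 units against 16.7 to 20.4; their part in the result was not tested.

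After Benjamini-Hochberg adjustment over all probes, 0 of the 300 members passed at 0.05 in limma, where 0% of all probes tested passed. The smallest adjusted p of a member was 0.21. At an unadjusted p under 0.05 there were 27 members, 26 of them lower at 2 h and 1 higher, where 12.9% of all probes passed. The members' shares were 8.67% lower and 0.33% higher, beside 3.85% lower and 9.02% higher among all probes tested. The groups did not overlap for 60 of the 300 members lower at 2 h and 4 higher, where the shares among all probes were 7.88% and 11.5%. The next 300 probes had 42 lower and 11 higher without overlap. Of the 27 members at an unadjusted p under 0.05, 11 differed at least 1.5-fold between the groups, 10 lower and 1 higher; this joint criterion is called the screen, and it took 4.8% of all probes, 0.738% lower and 4.07% higher. No test was made of the members' counts against those of other probes. Normexp is a background correction that models signal and noise and keeps every value positive. It was run with an offset of 50 units added, which draws dim probes together. With it 1 member passed the adjusted test, where 0.103% of all probes passed. With the array's median background added back to the signal, which also draws dim probes together, 6 did (5 lower, 1 higher), beside 1.2% of all probes. The split of calls differed between settings, with the 300 members held fixed. At an unadjusted p under 0.05, quantile normalization gave 11 members lower and 5 higher (6.45% and 7.78% of all probes), and the authors' deposited table gave 20 lower and 26 higher (5.63% and 7.05%). Normexp gave 92 lower and 2 higher (4.95% and 6.79% of all probes), and the background added back gave 65 lower and 2 higher (5.34% and 10.4%). Scaling on the members' own median, a setting added after their shared shift had been seen, gave 12 lower and 7 higher (0.918% and 17.3% of all probes); it moved the median difference of all probes to 0.12. With quantile normalization, the authors' table and the members' median, in that order, the screen held 5 members each, all 5 among the 11 each time, where 4.76%, 0.935% and 6.98% of all probes passed it.

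**Figure D3:**
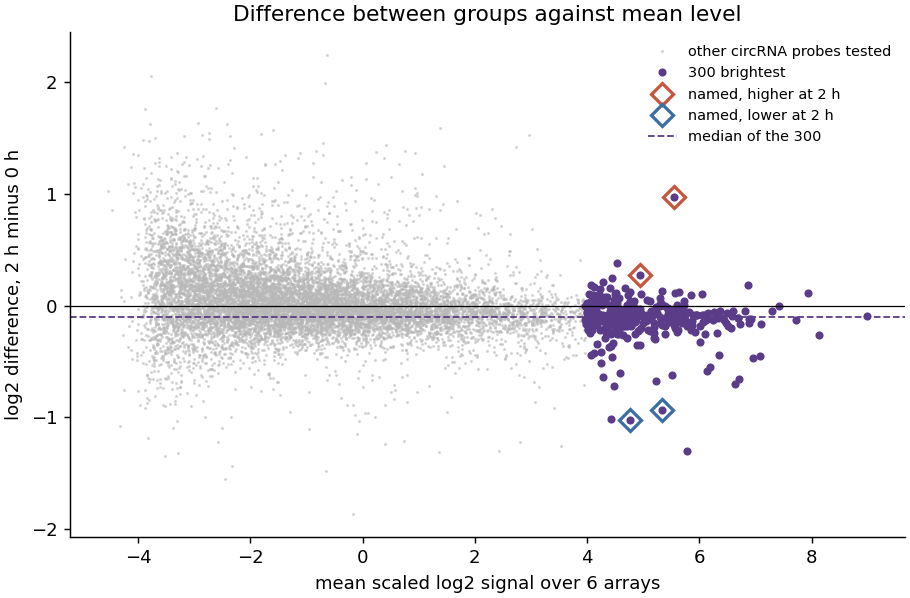
Log2 difference, 2 h minus 0 h, against mean scaled log2 signal for all circRNA probes tested (grey) and the 300 brightest (violet); diamonds mark the named members that read higher (red) or lower (blue) at 2 h. The dashed line is the members' median of -0.11, and members spread from -1.30 to 0.97.

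The member with the clearest higher reading at 2 h was ASCRPR000684, of rank 80. It read 1802, 2275 and 2321 units at 0 h and 2573, 5660 and 5201 at 2 h, so that 2 of the 2 h arrays stood well above the rest and 2 h replicate 1 only a little. The scaled log2 level averaged 5.06 (SD 0.24, n = 3) at 0 h and 6.03 (SD 0.44, n = 3) at 2 h, a 1.96-fold difference (log2 0.97 ± 0.24 SE; adjusted p 0.22, limma with Benjamini-Hochberg). Left-out arrays included, 19 other settings put it at 1.77-fold to 2.40-fold; the adjusted p ran from 0.042 with the background added back to 0.49 (limma). ASCRPR000581, of rank 131, was the other member taken by the naming rule in this direction, and the difference was small. It read 1923, 1618 and 1810 units at 0 h and 1683, 2981 and 2091 at 2 h; only after scaling were the groups apart, with 4.76 to 4.88 at 0 h against 4.90 to 5.32 at 2 h. The log2 difference was 0.27 ± 0.13 SE (unadjusted p 0.078, adjusted p 0.44, limma), from 0.15 (without 2 h replicate 2) to 0.40 over the settings.

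Among members that read lower at 2 h, ASCRPR009390, of rank 95, had the smallest p. It read 3529, 2548 and 4995 units at 0 h and 1847, 1954 and 1895 at 2 h: the 0 h arrays were spread out and the 2 h arrays lay together. The scaled log2 level averaged 5.80 (SD 0.41, n = 3) at 0 h and 4.87 (SD 0.16, n = 3) at 2 h, 1.91-fold lower at 2 h (log2 -0.93 ± 0.21 SE; adjusted p 0.21, limma with Benjamini-Hochberg). Over the 19 other settings it was 1.64-fold to 2.18-fold lower, and the adjusted p ran from 0.029 with the background added back and 0.034 with normexp to 0.46 (limma). ASCRPR012050, of rank 156, read 3301, 2473 and 1853 units at 0 h and 847, 1535 and 1463 at 2 h. It was 2.03-fold lower at 2 h (log2 -1.02 ± 0.25 SE; adjusted p 0.21, limma with Benjamini-Hochberg) and 1.78-fold to 2.40-fold lower over the other settings, with an adjusted p from 0.033 with the background added back to 0.46 (limma). For both, all 3 arrays at 0 h lay above all 3 at 2 h. These 4 members were chosen for having the smallest p without overlap in their direction, so the values describe the extremes of 300.

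A difference of at least 1.5-fold was reached by 12 members, 11 lower at 2 h and ASCRPR000684 higher; of all probes tested, 6.14% reached it, 1.26% lower and 4.88% higher. The members in this group were picked for their size, and their profiles over the arrays are a description. Of the 11, 7 shared one profile, highest on 0 h replicate 3, then on 0 h replicate 1 and 0 h replicate 2, with the 2 h arrays close together. Their SDs were 0.29 to 0.42 among the 0 h arrays and 0.03 to 0.16 among the 2 h arrays, and none of the 7 overlapped between groups (log2 differences -0.93 to -0.60). ASCRPR009390 is one of them, and another is the member of rank 16, which read 8608, 6376 and 10596 units at 0 h and 4912, 5856 and 5508 at 2 h. The same order of the 0 h arrays was met by 55 of the 300 members. Of these, 31 also had an SD there over 0.25, and 28 of the 31 had a negative difference. Among all 300 members, 246 had a negative difference. The order was not counted over all probes. The screen of 11 members depended on 0 h replicate 3: without it 7 members passed, 5 of which were among the 11, where 4.76% of all probes passed. Without 0 h replicate 2 the screen held 13 members, 9 of them among the 11 (5.74% of all probes).

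The other 4 varied widely in both groups. All 4 were lowest on 2 h replicate 1 and 3 were highest on 0 h replicate 2, with SDs of 0.43 to 0.72 at 0 h and 0.30 to 0.84 at 2 h. The member of rank 57 had the largest difference in the list and read 5814, 8068 and 3518 units at 0 h and 1304, 4059 and 2217 at 2 h. Its groups overlapped, since 2 h replicate 2 stood above 0 h replicate 3, and its log2 difference was -1.30 ± 0.41 SE (unadjusted p 0.015, adjusted p 0.28, limma). The member of rank 215, given above for its spread, had a log2 difference of -1.02 ± 0.49 SE (unadjusted p 0.076, limma), and ASCRPR012050 and the member of rank 19 did not overlap.

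**Figure D4:**
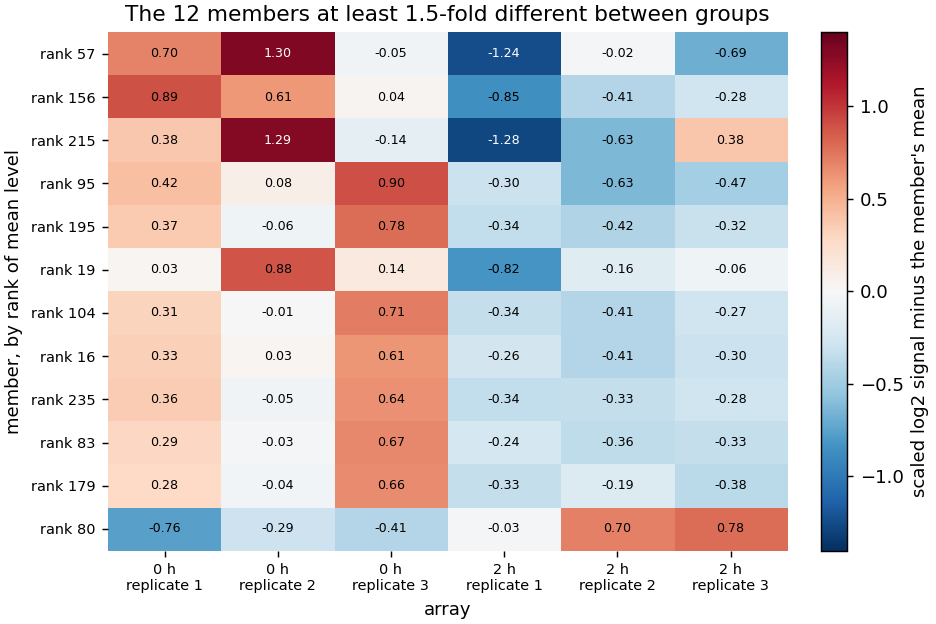
Scaled log2 signal minus the member's mean over the 6 arrays, for the 12 members at least 1.5-fold different between groups, ordered by their difference; red is above and blue below the mean, and each cell prints its value in log2 units. Columns are the arrays; 7 rows are darkest red on 0 h replicate 3, 5 rows are lowest on 2 h replicate 1, 1 of them by a small margin, and the last row, ASCRPR000684 of rank 80, is red on 2 h replicates 2 and 3.

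The small negative shift was seen along the whole list. The median log2 difference was -0.12 for ranks 1 to 10, -0.11 for ranks 11 to 100 and -0.10 for the remaining 200, and 9 of 10, 77 of 90 and 160 of 200 members were negative. It was -0.09 over the next 300 probes, 226 of which were negative. Within slide column 2, which holds 0 h replicate 1 and 2 h replicate 2, the members' median difference was -0.11, and within slide column 3, which holds 0 h replicate 2 and 2 h replicate 3, it was -0.17. Only these columns held both groups, and each holds an array named replicate 2. With the slide column as a block the members' median difference was -0.16. That difference rested on the same arrays, without 0 h replicate 3 and 2 h replicate 1, so it is no separate check. The screen then held 6 members, 4 lower and 2 higher, 4 of them among the 11 (7.69% of all probes passed).

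**Figure D5:**
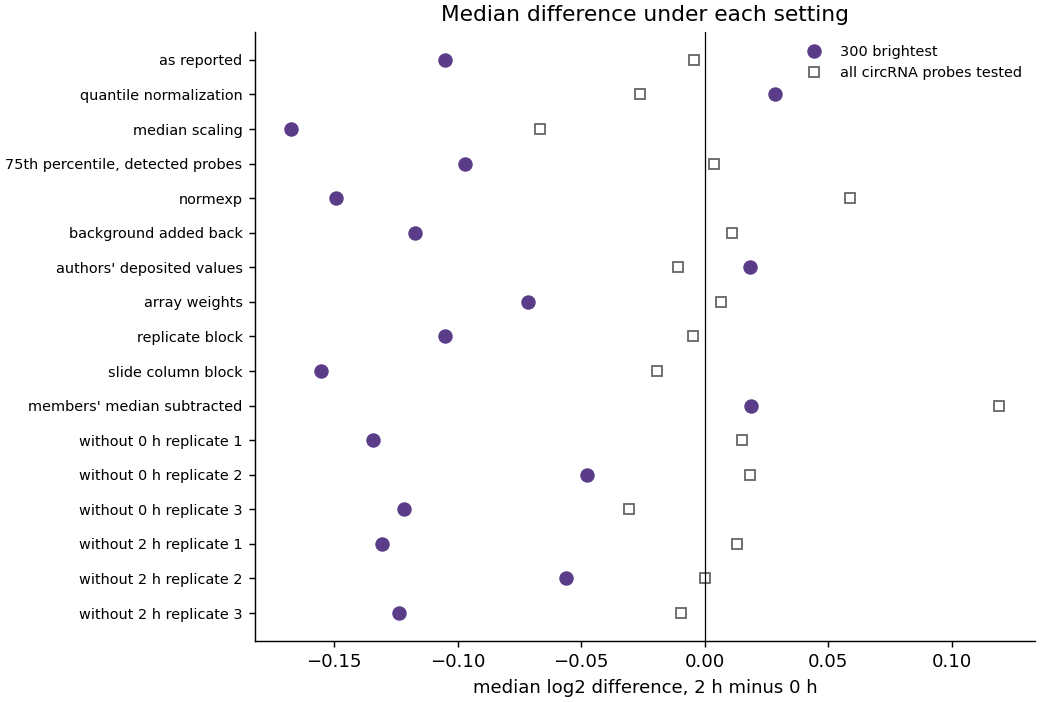
Median log2 difference, 2 h minus 0 h, under each setting that can move it, for the 300 brightest probes (violet circles) and all circRNA probes tested (grey squares). The circles lie below 0, at -0.17 to -0.05, except with quantile normalization, the authors' deposited values and scaling on the members' own median, where they lie at 0.018 to 0.028.

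The members were spread over the spot grid much as all circRNA probes were. Above the middle row lay 149 of them (49.7%, against 49.9% of all circRNA probes), and left of the middle column 146 (48.7% against 50.2%). By ID, members made up 1.98% of the first 5000 probes, 2.72% of the next 5000 and 1.57% of the remaining 4145. What the order of the IDs stands for is not known here.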

How the data were processed

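Per the file headers, the 6 scanner files come from Feature Extraction 11.0.1.1 of Agilent, and the deposited intensity is background-subtracted without scaling between arrays. The authors' deposited table is on a log2 scale, as inferred from its values; its column medians were 5.41 to 5.43, so it was not centred at 0, and the submitters' processing notes name limma without a version. Other deposited columns used were flags, median spot and background intensity, given as the authors' scanner software wrote them (other values: 0 or 1).

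Control spots and outlier-flagged spots were left out, and spots were averaged per probe. Probes well above background on at least 3 arrays were tested with limma 3.58.1 in R 4.3.3 (lmFit and eBayes), two-sided, with Benjamini-Hochberg adjustment. All 300 members passed that filter, since the choice required it. On simulated data with independent noise per probe, the fit was checked for returning the size of planted differences. That simulation held no shift shared by many probes, so it does not check the adjusted test under such shifts. Per-array measures had exact permutation tests (scipy 1.17.1). Named by rule were the 2 members per direction with the smallest p among those at least 1.2-fold different without overlap (2 qualified as higher, 25 as lower) and the 3 brightest. Alternatives were other scalings and background corrections (normexp on the median spot signal), filters, array weights, blocks, the authors' table and each array left out. The members, lists and tests were chosen with earlier results of these data known. The number of arrays limits the precision.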

Additional observations from a re-analysis of the deposited data

How the results depend on the processing

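The adjusted count of 0 members became 1 with normexp and 6 with the background added back, and stayed 0 in the other 17 settings. The screen count of 11 became 5 with quantile normalization, 5 with the authors' deposited values, 6 with the slide column block and 5 with the members' median subtracted, and 7 (without 0 h replicate 3) to 13 (without 0 h replicate 2) without an array; it was within 1.5 times elsewhere. The members' median log2 difference of -0.11 turned to 0.028 with quantile normalization, 0.018 with the authors' values and 0.019 with the members' median subtracted. The first and the last remove a shared shift by construction, and whether the authors' values do is not known. The members' median log2 difference was -0.17 with median scaling, -0.15 with normexp, -0.071 with array weights and -0.16 with the slide column block. Without an array it was -0.13 (without 0 h replicate 1) to -0.048 (without 0 h replicate 2). The difference in median scaled level, -0.12, was 0 with the authors' values and -7.2e-05 with quantile normalization. The members' median spread was below that of all probes except with normexp, the background added back and the authors' values. The log2 difference of ASCRPR005480 turned to 0.29 with the authors' values and 0.031 with the members' median subtracted, that of ASCRPR011057 to 0.15 with the authors' values and that of ASCRPR012821 to -0.045 with normexp. Of 133 refits of the named members, 116 kept direction and side of an unadjusted 0.05, 13 passed it newly and 4 turned. The 116 include ASCRPR005480 with quantile normalization, whose log2 difference of -4.8e-15 is a rounding remainder without a direction. A replicate block left the adjusted count at 0, the screen at 11 and the median at -0.11. No label says whether samples with one replicate number belong together. The deviations of arrays with one number correlated at -0.12, 0.019 and -0.068 over all probes tested. Over the members they correlated at 0.12, -0.35 and -0.33. The best match of an array over all probes carried its own number in 0 of 6 cases. Deviations from the mean of so few arrays cannot decide whether the samples are paired. The slide column block, the members' median and keeping outlier spots in the share were added after seeing the data. For shifts given without a cause, the cause was not tested. All arrays lay on 1 slide, so no slide block was run.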
